A study of Rattus norvegicus with 6 samples.

Results

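Integrin and laminin subunits are the cell surface receptors and the basement membrane proteins through which skin cells hold on to the matrix. Their genes were taken from the deposited expression table by symbol: every Itga or Itgb symbol that ends in a number or in d, e, l, m, v, x or 2b, and every Lama, Lamb or Lamc symbol that ends in a number. The rule found 37 of the 18825 genes in the table, made up of 18 integrin alpha, 8 integrin beta, 5 laminin alpha, 3 laminin beta and 3 laminin gamma chains. Messenger RNA came from dorsal skin wounds of male Sprague–Dawley rats, cut as full-thickness wounds. The rats had been made diabetic with a diet rich in fat and sucrose and then streptozotocin, a toxin of pancreatic beta cells, so that all 6 libraries come from diabetic animals. In the DST-MNs group (3 libraries) the wounds received microneedles that carry spheroids of dental pulp stem cells regulated with spermidine, a polyamine, and TGF-β3, a growth factor. In the control group (3 libraries) the diabetic wounds were left untreated, so needles without cells or factors are not part of the comparison. The 3 libraries of a group are labelled biological replicates, with neither the age of the animals nor the day of collection stated. They also do not say whether a library pools animals.

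A laminin is a trimer of 1 alpha, 1 beta and 1 gamma chain, secreted into the sheet of matrix under epithelia and around vessels, muscle fibres, fat cells and nerves. An integrin is a dimer of 1 alpha and 1 beta chain that spans the cell membrane and joins matrix proteins, or counter-receptors on other cells, to the cytoskeleton. In skin, basal keratinocytes secrete an epithelial laminin that holds Lama3 and Lamb3 and are riveted to it through hemidesmosomes, whose integrin is Itga6 with Itgb4. Vessels rest on laminins of Lama4 or Lama5 with Lamb1 or Lamb2 and Lamc1, fibroblasts of a wound grip fibronectin and collagen through dimers of Itgb1, and leukocytes carry the dimers of Itgb2.

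Promoter sequences are shown for 5 laminin chains, 2 of keratinocytes and 3 of vessel and stromal basement membranes, because the libraries set these chains apart in opposite directions. They come from a RefSeq table of the build GRCr8, which holds the 250 bases before and the first 50 bases of each gene, and 28 of the 37 members were found in it by gene identifier. The deposited values were made on the build mRatBN7.2, so these coordinates belong to the sequence table and not to the values. Capitals mark the letters TGANTCA (the AP-1 motif), TGACGTCA (the cAMP response element), TATAAA or GGGCGG (the GC box), each searched on both strands.
Lama3 (GRCr8, chr18:3952517-3952816, plus strand): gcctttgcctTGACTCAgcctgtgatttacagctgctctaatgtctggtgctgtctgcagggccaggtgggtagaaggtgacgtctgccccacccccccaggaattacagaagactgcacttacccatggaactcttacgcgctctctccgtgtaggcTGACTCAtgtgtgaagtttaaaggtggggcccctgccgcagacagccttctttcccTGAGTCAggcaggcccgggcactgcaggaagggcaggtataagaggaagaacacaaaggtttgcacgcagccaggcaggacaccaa
Lamb3 (GRCr8, chr13:107362303-107362602, plus strand): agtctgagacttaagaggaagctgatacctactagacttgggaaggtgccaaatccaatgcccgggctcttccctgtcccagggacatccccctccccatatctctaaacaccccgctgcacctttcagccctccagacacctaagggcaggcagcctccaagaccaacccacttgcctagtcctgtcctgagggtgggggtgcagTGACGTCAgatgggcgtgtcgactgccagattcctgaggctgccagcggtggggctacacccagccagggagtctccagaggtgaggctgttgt
Lama4 (GRCr8, chr20:43946648-43946947, plus strand): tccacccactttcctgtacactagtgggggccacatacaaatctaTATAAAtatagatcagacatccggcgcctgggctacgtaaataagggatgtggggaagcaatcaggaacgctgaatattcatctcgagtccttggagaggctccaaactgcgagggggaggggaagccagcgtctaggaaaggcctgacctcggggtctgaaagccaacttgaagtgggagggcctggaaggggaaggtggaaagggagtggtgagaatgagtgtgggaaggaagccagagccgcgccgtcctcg
Lamb1 (GRCr8, chr6:53562846-53563145, plus strand): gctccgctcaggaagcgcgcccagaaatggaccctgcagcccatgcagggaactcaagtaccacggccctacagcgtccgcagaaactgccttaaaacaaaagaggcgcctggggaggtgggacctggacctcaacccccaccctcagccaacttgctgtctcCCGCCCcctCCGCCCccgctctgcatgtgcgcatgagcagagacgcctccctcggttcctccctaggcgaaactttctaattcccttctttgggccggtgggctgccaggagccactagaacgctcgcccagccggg
Lamc1 (GRCr8, chr13:68051937-68052236, minus strand): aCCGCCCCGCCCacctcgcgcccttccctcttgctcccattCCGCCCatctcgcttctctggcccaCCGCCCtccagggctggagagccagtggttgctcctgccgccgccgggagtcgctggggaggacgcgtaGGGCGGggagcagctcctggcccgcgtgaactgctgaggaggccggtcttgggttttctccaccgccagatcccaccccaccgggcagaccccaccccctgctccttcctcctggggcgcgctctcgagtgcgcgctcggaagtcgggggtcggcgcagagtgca
The Lama3 window holds TGANTCA 3 times, with first bases 240, 92 and 36 bases before the start, and Lamb3 holds TGACGTCA with its first base 44 bases before it. Lama4 holds TATAAA, 205 bases before the start, Lamb1 holds the GC box 2 times and Lamc1 holds it 5 times, 1 of them on the strand shown. Of all 33469 promoters in the table, 7.33% hold TGANTCA, 1.83% TGACGTCA, 14.2% TATAAA and 33.1% the GC box. The 28 matched members had these motifs in 2, 1, 2 and 15 windows, so that apart from Lama3 only Itgax held TGANTCA. The CG dinucleotide occurred 7 and 6 times in the Lama3 and Lamb3 windows, and 12, 18 and 28 times in those of Lama4, Lamb1 and Lamc1. The median was 7 over all promoters in the table and 11.5 over those of the 28 matched members. These matches describe the letters in the windows and say nothing of what binds there.

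Counts per library ran from 12545206 to 13818548. Of the 37 members, 36 passed the filter on low counts, which kept 14427 genes. The exception was Lama1, the alpha chain of the first laminin described, with 10, 1 and 0 counts in the DST-MNs libraries and 0, 0 and 1 in the controls. DST-MNs 1 stood apart in hair follicle markers (5 genes), with a summed level of 721 TPM (a transcript level corrected for gene length and library size) against 2.53 and 5.77 in DST-MNs 2 and 3 and 1.50 to 11.0 in controls. Skeletal muscle markers (5 genes) summed to 5690 to 7100 TPM in DST-MNs libraries and 7450 in control 1, but to 22.5 and 403 in controls 2 and 3. Smooth muscle and pericyte markers (6 genes) summed to 877 to 1300 TPM in treated libraries and 884 to 1090 TPM in controls, and platelet markers (3 genes, nearly all of the sum from Pf4) overlapped between the groups, with DST-MNs 2 the highest of the 6 libraries and DST-MNs 1 the lowest (278 TPM). In bulk tissue, fewer cells of a type and less RNA per cell cannot be told apart.

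No integrin or laminin chain passed the threshold when treated and untreated wounds were compared over all genes. The quasi-likelihood test of edgeR, Benjamini-Hochberg adjusted with a threshold of 0.05, called 0 of the 36 members tested and 0.776% of all genes (112 genes). At an unadjusted p below 0.05 there were 14 members, or 38.9%, against 16.7% of all genes. Of these, 9 were higher in the treated wounds (9.80% of all genes) and 5 were lower (6.88% of all genes). DESeq2, run as an alternative, called 9 members, 25.0% against 7.06% of all genes. It called Lama3, Lamb3, Lamc3, Itgb4 and Itgb8 higher and Lama4, Lamb1, Lamc1 and Itga5 lower, against 4.34% of all genes called higher and 2.72% called lower. With limma-voom the count was 0 (0.658% of all genes), with limma trend on log2(TPM + 1) 0 of 35 (0.982%), with the replicate number as a block 1 (0.853%), and with edgeR without control 1 it was 3 (2.74%). The libraries of the groups did not overlap in counts scaled to library size (CPM) for 15 members, 41.7% against 22.9% of all genes. The DESeq2 count was 6 without DST-MNs 1 (6.30% of all genes), 5 without control 2 (3.44%), and 8 to 11 without any other library (4.82% to 12.9%). Lama3, Lama4 and Lamc1 were called by DESeq2 with each of the 6 libraries left out in turn. The median log2 change of the 36 members was 0.33, against 0.00 for all genes tested, and 23 were positive and 13 negative. Below, log2 changes are treated over untreated with a standard error (SE), adjusted p-values are edgeR's unless DESeq2 is named, and levels are TPM.

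**Figure D1:**
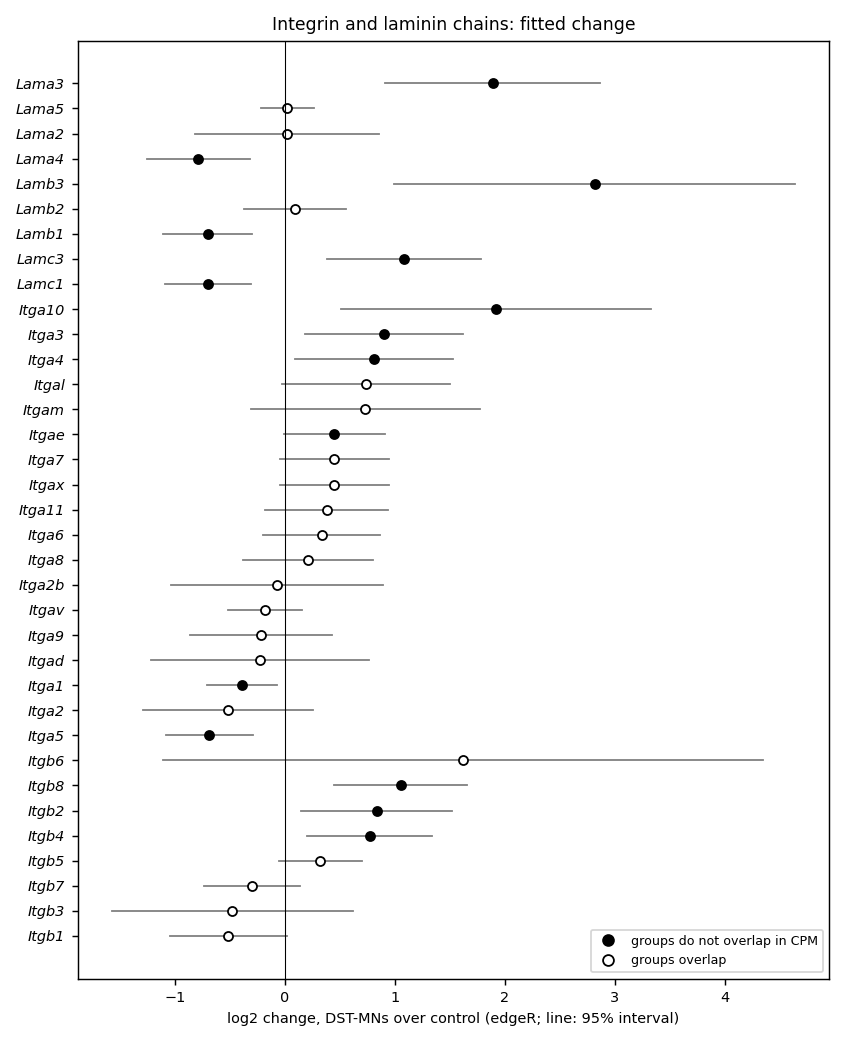
Log2 change of 35 tested chains, DST-MNs over control, from edgeR's quasi-likelihood fit (x axis), with the 95% interval as a line and chains grouped by family (y axis). Filled points are chains whose libraries did not overlap between the groups in CPM. Of these, Lama3, Lamb3, Lamc3, Itga3, Itga4, Itga10, Itgae, Itgb2, Itgb4 and Itgb8 lie right of 0. Lama4, Lamb1, Lamc1, Itga5 and Itga1 lie left of it.

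Lama3 and Lamb3, laminin chains of the keratinocyte basement membrane, had higher levels in every treated library than in any control, most in DST-MNs 1, without passing edgeR's threshold. Lama3, the alpha chain of the epithelial laminin of keratinocytes, stood at 12.3, 3.96 and 5.40 TPM in DST-MNs 1, 2 and 3, against 2.24, 1.24 and 1.53 TPM in controls 1, 2 and 3. Every treated library lay above every control, and the fitted log2 difference was 1.89 (SE 0.41, adjusted p = 0.112, edgeR). With DESeq2 its adjusted p was 0.00034, and over all alternatives it ran from 0.00034 to 0.355. Lamb3, the beta chain of the same trimer, stood at 16.0, 2.01 and 5.85 TPM in the treated libraries and at 1.25, 0.48 and 1.27 TPM in the controls. These groups did not overlap either, and the fitted log2 difference was 2.82 (SE 0.77, adjusted p = 0.161, edgeR), or 1.89 without DST-MNs 1. The adjusted p of Lamb3 was 0.00152 with DESeq2 and ran from 0.00152 to 0.453 over the alternatives. Basal keratinocyte markers were also highest in DST-MNs 1. Their sum, over 4 of the 5 listed genes, was 3710, 298 and 1210 TPM in the treated libraries and 183, 23.2 and 172 TPM in the controls, and of the 4 Krt15 was at 0 in control 2 alone. Sebocyte markers (5 genes) summed to 365, 310 and 281 TPM in the treated libraries and 27.4, 13.2 and 19.8 TPM in the controls, and 3 of the 5 were called higher by edgeR. The part of either cell type in the levels of Lama3 and Lamb3 was not tested.

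Of the laminin chains of vessel and stromal basement membranes, Lama4, Lamb1 and Lamc1 had lower levels in every treated library than in any control, without passing edgeR's threshold, while Lama5 and Lamb2 overlapped. Lama4, the alpha chain of endothelial and adipocyte laminin, had the highest level of the 5 alpha chains. It stood at 57.5, 55.4 and 45.7 TPM in the treated libraries and at 61.0, 78.7 and 108 TPM in the controls. The groups did not overlap, and the fitted log2 difference was -0.79 (SE 0.20, adjusted p = 0.145, edgeR; 0.0029 with DESeq2; 0.0029 to 0.384 over the alternatives). Lamb1, the beta chain of many laminins, stood at 66.1, 58.8 and 72.2 TPM in the treated libraries and at 80.2, 99.8 and 112 TPM in the controls. Its fitted log2 difference was -0.70 (SE 0.17, adjusted p = 0.135, edgeR; 0.00152 with DESeq2; 0.00152 to 0.411 over the alternatives). Lamc1, the gamma chain shared by most laminins, stood at 72.5, 77.6 and 65.6 TPM in the treated libraries and at 83.9, 106 and 128 TPM in the controls. Its fitted log2 difference was -0.70 (SE 0.16, adjusted p = 0.131, edgeR; 0.000417 with DESeq2; 0.000417 to 0.397 over the alternatives). For all 3 chains control 1 was the control nearest to the treated libraries. Endothelial markers (5 of 5 genes, none at 0 in every library) summed to 280, 348 and 244 TPM in DST-MNs 1, 2 and 3 and to 309, 367 and 391 TPM in controls 1, 2 and 3, so that these sums overlapped. All 5 had negative log2 changes, with a median of -0.41, and Vwf (-0.70, SE 0.12) and Pecam1 (-0.49, SE 0.17) were apart between the groups in CPM. Fibroblast markers (5 of 5 genes, none at 0 in every library) summed to 17300, 18400 and 18400 TPM in the treated libraries and to 18200, 21300 and 22700 TPM in the controls. All 5 of these had negative log2 changes too, with a median of -0.52. The receptor gene Pdgfra stood at 56.4, 68.4 and 57.3 TPM in the treated libraries and at 92.4, 94.5 and 92.9 TPM in the controls (log2 change -0.77, SE 0.14, adjusted p = 0.0723, edgeR, 1.53e-07 to 0.274 over the alternatives). The part of vessel or fibroblast content in the lower laminin levels was not tested.

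**Figure D2:**
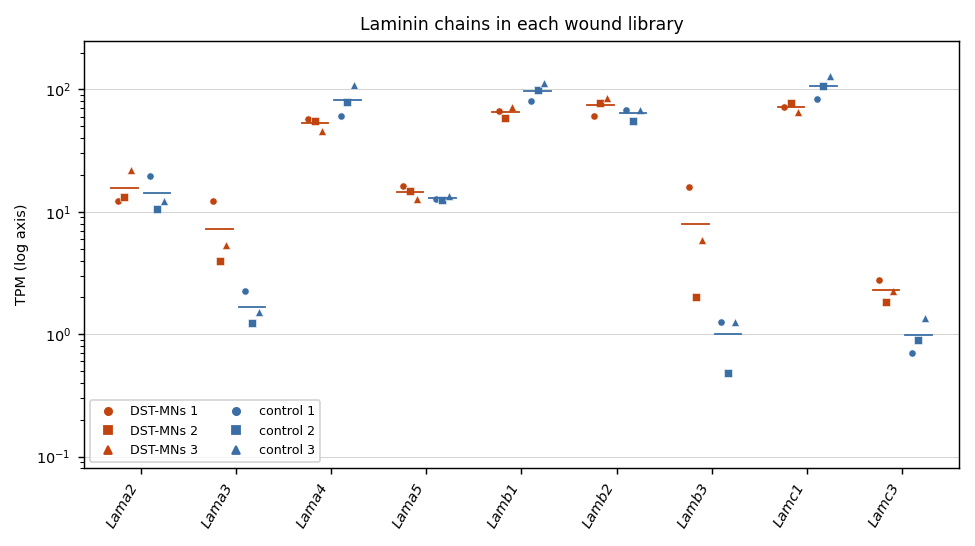
TPM (log axis) of 9 laminin chains in each library, with DST-MNs in orange-red left of control in blue, a marker shape for each replicate number and a line at each group mean. Lama3 and Lamb3 lie higher in all DST-MNs libraries, and Lama4, Lamb1 and Lamc1 lie lower.

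The remaining chains were Lamc3, Lama5, Lama2 and Lamb2, of which Lamc3 alone was apart between the groups. Lamc3, a gamma chain of epithelial and nervous tissue, was low in all libraries, at 2.78, 1.83 and 2.27 TPM in the treated wounds and 0.70, 0.90 and 1.35 TPM in the controls. Its groups did not overlap, and the fitted log2 difference was 1.08 (SE 0.29, adjusted p = 0.16, edgeR; 0.0296 with DESeq2; 0.0296 to 0.466 over the alternatives). Lama5, the alpha chain of epithelial and mature vessel basement membranes, stood at 12.8 to 16.3 TPM in the treated libraries and 12.6 to 13.5 TPM in the controls. Lama2, the alpha chain of muscle fibre and Schwann cell basement membranes, was highest in DST-MNs 3 (21.8 TPM) and control 1 (19.7 TPM), and stood at 10.5 to 13.2 TPM in the other 4 libraries. Schwann cell markers (5 of 5 genes, none at 0 in every library) summed to 129 TPM in DST-MNs 3, 67.6 TPM in DST-MNs 2, 54.5 TPM in control 1 and 5.45 to 17.8 TPM in the rest. Lamb2, the beta chain of muscle, nerve and vessel laminins, stood at 61.1 to 85.3 TPM in the treated libraries and 55.5 to 68.6 TPM in the controls. The groups overlapped for Lama5, Lama2 and Lamb2.

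As shares of the summed alpha chain TPM, the alpha chains were more evenly spread in the treated wounds. Lama4 took 58.3%, 63.5% and 53.4% in DST-MNs 1, 2 and 3 and 63.8%, 76.4% and 79.9% in controls 1, 2 and 3. Lama3 took 12.5%, 4.54% and 6.30% in the treated libraries and 2.34%, 1.20% and 1.13% in the controls, and Lama5 took 16.1% ± 1.04 in the treated libraries and 11.8% ± 1.70 in the controls (mean ± SD, n = 3 each). None of these 3 shares overlapped between the groups, although DST-MNs 2 and control 1 differed by little in Lama4. An exact two-sided permutation test gave p = 0.1 for each, the smallest p that 3 against 3 libraries allow, and 0.167 adjusted over the 5 shares. The shares add up to a whole, so a lower Lama4 raises the others. The level of Lama5 itself overlapped between the groups, as given above. Among the beta chains Lamb1 took 44.2% ± 1.88 in the treated wounds and 59.8% ± 5.33 in the controls, and Lamb3 took 5.41% ± 5.13 in the treated wounds and 0.615% ± 0.275 in the controls (SD, n = 3 each).

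**Figure D3:**
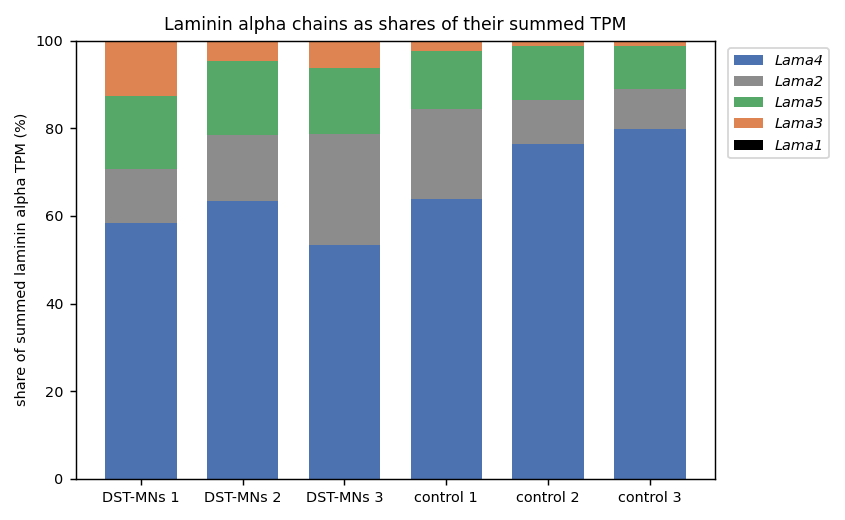
Share of each laminin alpha chain in the summed alpha chain TPM (y axis, percent) of each library (x axis), with the 3 DST-MNs libraries left of the 3 controls. Lama4 is the largest part in every library, at 53.4% to 63.5% in DST-MNs and 63.8% to 79.9% in control wounds, and Lama3 is at 4.54% to 12.5% in DST-MNs and 1.13% to 2.34% in control wounds.

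The hemidesmosome integrin chains, which bind the epithelial laminin, differed unequally. Itgb4, whose long tail anchors keratin filaments, stood at 38.3, 18.6 and 25.9 TPM in DST-MNs 1, 2 and 3 and at 14.6, 13.0 and 15.6 TPM in controls 1, 2 and 3. All treated libraries lay above all controls, and the fitted log2 difference was 0.77 (SE 0.24, adjusted p = 0.194, edgeR; 0.0469 with DESeq2; 0.0469 to 0.523 over the alternatives). Its partner Itga6, which also pairs with Itgb1 on endothelium, stood at 47.7, 28.7 and 33.0 TPM in the treated libraries and at 19.3, 26.6 and 32.0 TPM in the controls. These groups overlapped, and the fitted log2 difference was 0.34 (SE 0.22, 95% interval -0.20 to 0.87, adjusted p = 0.493, edgeR). Itga3, the alpha chain of another laminin receptor of keratinocytes, stood at 15.2, 6.97 and 7.06 TPM in the treated libraries and at 5.02, 4.68 and 4.17 TPM in the controls. The groups did not overlap, and the fitted log2 difference was 0.90 (SE 0.30, adjusted p = 0.215, edgeR), or 0.49 without DST-MNs 1. The sums of Itga6 and Itgb4 were 86.0, 47.3 and 58.9 TPM in the treated libraries and 33.9, 39.6 and 47.6 TPM in the controls, with DST-MNs 2 just below control 3.

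The dimers of Itgav with Itgb6 or Itgb8 release active TGF-β from its latent form, and TGF-β3 is part of the treatment. Itgb8, which pairs with Itgav and exposes latent TGF-β, stood at 2.47, 1.68 and 1.99 TPM in the treated libraries and at 0.85, 1.09 and 0.72 TPM in the controls. The groups did not overlap, and the fitted log2 difference was 1.05 (SE 0.25, adjusted p = 0.136, edgeR; 0.0132 with DESeq2; 0.0132 to 0.327 over the alternatives). Itgb6, the epithelial partner of Itgav that is switched on in wounded epidermis, stood at 8.01, 2.70 and 3.18 TPM in the treated libraries and at 3.43, 0.09 and 0.33 TPM in the controls. Control 1 lay above DST-MNs 2 and 3, and the log2 change of 1.62 (SE 1.15, 95% interval -1.11 to 4.35, adjusted p = 0.523, edgeR) was 4.31 without control 1 (adjusted p = 0.049, edgeR) and 1.02 without DST-MNs 1. Over all alternatives the adjusted p of Itgb6 ran from 0.049 to 0.787. Itgav itself, the shared alpha chain, stood at 30.0, 30.3 and 24.1 TPM in the treated libraries and at 23.8, 27.9 and 34.5 TPM in the controls. Its groups overlapped, and the fitted log2 difference was -0.18 (SE 0.14, 95% interval -0.51 to 0.16, adjusted p = 0.571, edgeR). Itgb5, a further partner of Itgav, stood at 86.2 to 108 TPM in the treated libraries and 59.5 to 81.2 TPM in the controls. Itgb3, a partner of Itgav on sprouting vessels, stood at 8.06, 2.49 and 2.77 TPM in the treated libraries and 4.38 to 7.04 TPM in the controls. For Itgb5 the groups were apart in TPM and overlapped in CPM, and for Itgb3 they overlapped in both.

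The integrin chains of fibronectin and collagen binding spanned a wide range of levels. Itgb1, the common beta chain, had the highest level of all members, at 296, 316 and 196 TPM in the treated libraries and 259, 352 and 429 TPM in the controls. Its groups overlapped, and the fitted log2 difference was -0.51 (SE 0.22, 95% interval -1.05 to 0.02, adjusted p = 0.316, edgeR). As a share of all beta chain TPM, Itgb1 took 51.3% ± 4.81 in the treated wounds and 68.2% ± 6.48 in the controls (SD, n = 3 each). Itga5, which forms the fibronectin receptor with Itgb1 and had the highest level of the 18 alpha chains, was lower in every treated library. It stood at 53.4, 56.8 and 54.1 TPM in DST-MNs 1, 2 and 3 and at 61.5, 91.0 and 87.3 TPM in controls 1, 2 and 3, and the fitted log2 difference was -0.69 (SE 0.17, adjusted p = 0.136, edgeR). With DESeq2 the adjusted p was 0.00224, without control 1 it was 0.048 (edgeR), and over the alternatives it ran from 0.00224 to 0.425. Itga1, a collagen and laminin receptor of vessel and stromal cells, stood at 11.41, 12.16 and 10.02 TPM in the treated libraries and at 11.2, 13.2 and 15.8 TPM in the controls. Its fitted log2 difference was -0.39 (SE 0.13, adjusted p = 0.224, edgeR), and its groups were apart in CPM but overlapped in TPM. Itga10, a collagen receptor known from cartilage, was close to the lower limit, with 39, 41 and 56 counts in the treated libraries and 12, 3 and 19 in the controls. Those groups did not overlap, and the fitted log2 difference was 1.92 (SE 0.59, adjusted p = 0.193, edgeR). The other collagen and matrix receptors overlapped between the groups in CPM. They were Itga11, the fibrillar collagen receptor of fibroblasts, at 15.2 to 37.7 TPM over the 6 libraries, Itga2 at 1.52 to 3.81, Itga8 at 6.55 to 13.3, Itga9 at 4.55 to 9.49 and Itga7, the laminin receptor of muscle fibres, at 8.04 to 17.5 TPM. Itga7 was at 13.1 to 17.5 TPM in the treated libraries and at 8.04 to 12.2 TPM in the controls, apart in TPM only, and its highest control was control 1, the control with high muscle markers.

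**Figure D4:**
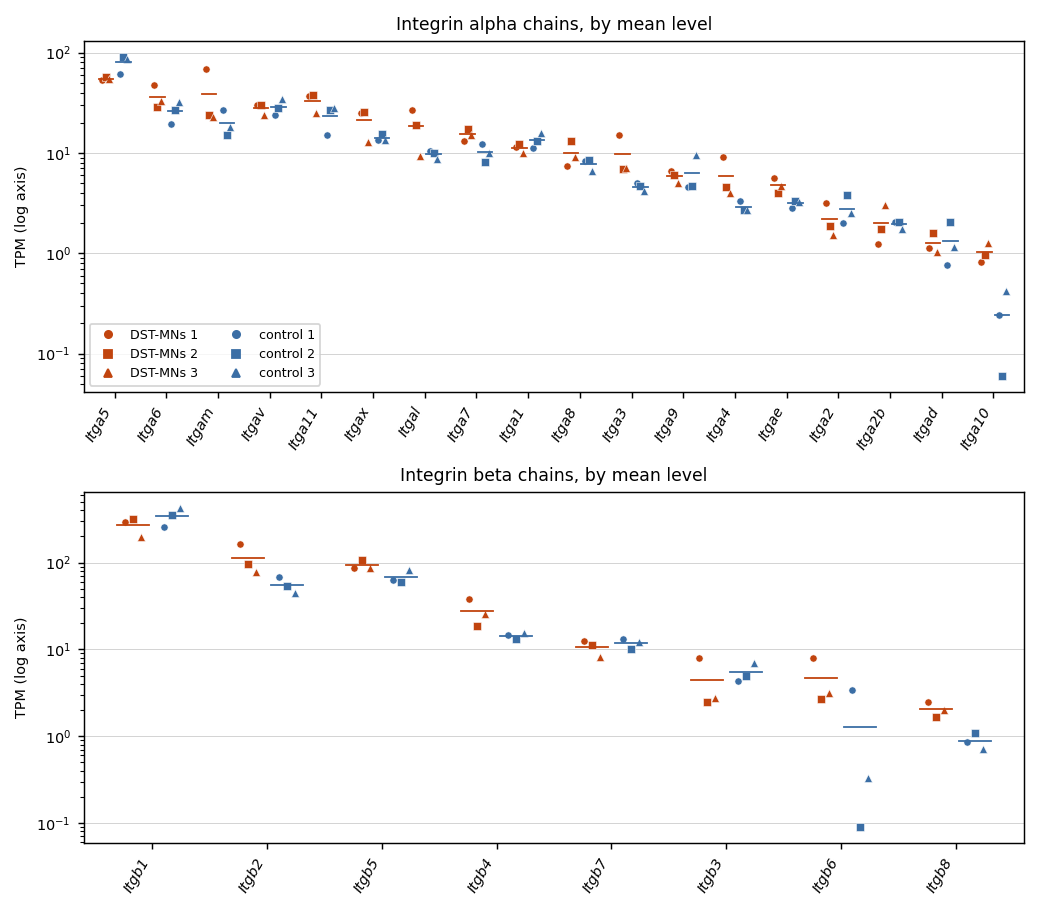
TPM (log axis) of 18 integrin alpha chains (upper panel) and 8 integrin beta chains (lower panel) in each library, ordered by mean level, with DST-MNs in orange-red left of control in blue and a line at each group mean. Itga5 and Itgb1 lead their families, Itga5 is lower in all 3 DST-MNs libraries, and DST-MNs 1 is the highest library for Itgam, Itgb2, Itgb4 and Itga6.

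Among leukocyte integrin chains, Itgb2, Itga4 and Itgae had higher levels in every treated library than in any control, the others overlapped, and none passed the threshold with edgeR or DESeq2. Itgb2, the beta chain shared by the dimers of Itgal, Itgam, Itgax and Itgad, stood at 162, 95.4 and 77.1 TPM in DST-MNs 1, 2 and 3. In controls 1, 2 and 3 it stood at 68.3, 53.4 and 44.8 TPM. The groups did not overlap, and the fitted log2 difference was 0.83 (SE 0.29, adjusted p = 0.226, edgeR), or 0.51 without DST-MNs 1. Its count in DST-MNs 1 had a fractional part, which no other member had in any library, and whether reads are shared with another gene was not tested. Itgam, the alpha chain of neutrophils and macrophages, stood at 69.1, 23.8 and 22.8 TPM in the treated libraries and at 26.8, 15.0 and 17.9 TPM in the controls. Control 1 lay above DST-MNs 2 and 3, and the log2 change of 0.73 (SE 0.44, 95% interval -0.31 to 1.77, adjusted p = 0.446, edgeR) was 0.10 without DST-MNs 1. Itgal of lymphocytes and other leukocytes was at 9.29 to 26.7 TPM in the treated libraries and 8.72 to 10.4 TPM in the controls. Itgax of dendritic cells and macrophages was at 13.0 to 25.6 TPM in the treated libraries and 13.3 to 15.5 TPM in the controls. Itgad of tissue macrophages was at 1.02 to 1.61 TPM in the treated libraries and 0.77 to 2.06 TPM in the controls. The groups overlapped for Itgal, Itgax and Itgad. Itga4, which pairs with Itgb1 or Itgb7 on lymphocytes and monocytes, was at 9.11, 4.53 and 4.02 TPM in the treated libraries and at 3.35, 2.73 and 2.68 TPM in the controls. Itgae, the chain with which skin lymphocytes and dendritic cells hold on to E-cadherin of keratinocytes, was at 5.64, 4.02 and 4.67 TPM in the treated libraries and at 2.84, 3.35 and 3.27 TPM in the controls. Neither Itga4 nor Itgae overlapped between the groups. Their partner Itgb7 was at 8.14 to 12.4 TPM in the treated libraries and 10.1 to 13.2 TPM in the controls, and Itga2b, a platelet chain, at 1.23 to 3.05 TPM in the treated libraries and 1.73 to 2.07 TPM in the controls.

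The level of leukocyte chains is given beside the marker sums of macrophages, neutrophils and T cells. Summed over Itgal, Itgam, Itgax, Itgad and Itgb2, it was 284, 166 and 123 TPM in DST-MNs 1, 2 and 3 and 120, 96.0 and 86.2 TPM in controls 1, 2 and 3. The 5 macrophage markers summed to 5630, 4520 and 3110 TPM in the treated libraries and to 3750, 3310 and 2670 TPM in the controls. Most of each of these sums came from Lyz2. Cd14 stood at 91.1, 72.7 and 79.8 TPM in the treated libraries and at 116, 93.4 and 91.5 TPM in the controls. Cd68 stood at 310, 224 and 224 TPM in the treated libraries and at 213, 172 and 141 TPM in the controls. Cd14 was apart between the groups in TPM and CPM, Cd68 in TPM only, and the other macrophage markers overlapped in TPM. Neutrophil markers (5 genes) summed to 1510, 3820 and 1230 TPM in the treated libraries and to 2810, 3370 and 1250 TPM in the controls. T cell markers (5 genes) summed to 33.1, 58.5 and 31.9 TPM in the treated libraries and to 29.6, 37.4 and 34.2 TPM in the controls. None of these markers was at 0 in every library, and the sums of all 3 lists overlapped between the groups. The part of cell content in the integrin levels was not tested.

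**Figure D5:**
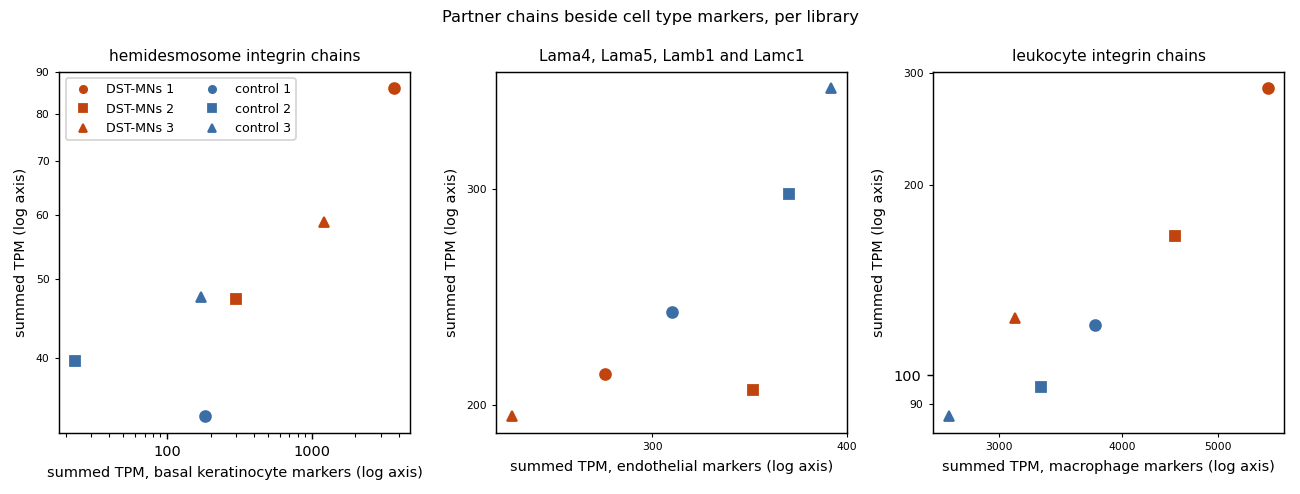
Summed TPM of related chains (y axes) against summed TPM of markers of a cell type (x axes), both on log axes. Each library is 1 point, with DST-MNs in orange-red and control in blue. The sums are of Itga6 with Itgb4, of Lama4, Lama5, Lamb1 and Lamc1, and of the leukocyte chains. DST-MNs 1 is highest on both axes for Itga6 with Itgb4 (86.0 TPM beside 3710 TPM of basal keratinocyte markers) and for the leukocyte chains. The sum of Lama4, Lama5, Lamb1 and Lamc1 is highest in control 3.

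Genes that work with these chains were counted in 5 lists. Of the ligands of integrins other than laminin, 1 of 20 tested passed as higher and 0 as lower, beside 0.776% of all genes called in either direction. That gene was Vtn, vitronectin, a plasma and matrix protein that Itgav dimers bind, which rose to 20.0, 31.1 and 22.1 TPM in the treated libraries, against 8.51, 6.96 and 8.77 TPM in the controls. Its fitted log2 difference was 1.44 (SE 0.22, adjusted p = 0.0499, edgeR), with adjusted p from 5.59e-06 to 0.2 over the alternatives, 5 of the 6 fits without 1 library above the threshold among them. Of the 20 ligands tested, 3 were higher and 6 lower at an unadjusted p below 0.05, against 9.80% and 6.88% of all genes. DESeq2 called 3 higher and 5 lower, against 4.34% and 2.72% of all genes. The median log2 change of the ligands was -0.29. Cdh1, the E-cadherin that Itgae binds, stood at 34.3, 5.57 and 9.83 TPM in the treated libraries and at 1.30, 1.04 and 1.29 TPM in the controls (log2 change 3.59, SE 0.67, adjusted p = 0.0831, edgeR, 8.22e-08 to 0.287 over the alternatives, or a log2 change of 2.57 without DST-MNs 1). Emilin1, an elastic fibre protein bound by Itga4 and Itga9 dimers, stood at 69.1, 71.4 and 51.9 TPM in the treated libraries and at 91.1, 118 and 104 TPM in the controls (log2 change -0.86, SE 0.15, adjusted p = 0.0723, edgeR, 1.41e-05 to 0.257 over the alternatives). Vwf, which platelet integrins bind, differed on the log2 scale by -0.70 (SE 0.12, adjusted p = 0.0723, edgeR, 1.4e-05 to 0.249 over the alternatives).

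None of the other 4 lists had a member past edgeR's threshold. Their counts stand beside 9.80% of all genes higher and 6.88% lower at an unadjusted p below 0.05, and 4.34% higher and 2.72% lower with DESeq2. Of 19 tested partners of laminin in the basement membrane, 5 were higher and 4 lower at an unadjusted p below 0.05, DESeq2 called 3 higher and 3 lower, and the median log2 change was 0.07. Agrn, agrin, which links laminin to its receptors, stood at 33.1, 31.8 and 25.1 TPM in the treated libraries and at 18.9, 16.4 and 16.2 TPM in the controls (log2 change 0.65, SE 0.13, adjusted p = 0.105, edgeR, 0.00122 to 0.366 over the alternatives). Col4a2, a basement membrane collagen chain, had a log2 change of -0.72 (SE 0.20), and its groups were apart in CPM but overlapped in TPM. Col4a6, a chain of epithelial basement membranes, had a log2 change of 2.52 (SE 0.67), or 1.71 without DST-MNs 1. Its level was low, with 77, 20 and 23 counts in the treated libraries and 7, 9 and 3 in the controls. The log2 change of Smoc2 was 1.38 (SE 0.39). Of 7 hemidesmosome and anchorage genes, 3 were higher at an unadjusted p below 0.05 (Col17a1, Krt5 and Krt14), 0 were lower and DESeq2 called 0. Krt5 and Krt14 are also among the basal keratinocyte markers given above. Cd151 of this list was lower in every treated library in CPM but overlapped in TPM (log2 change -0.39, SE 0.17, adjusted p = 0.322, edgeR), and 5 of the 7 had positive log2 changes. Col17a1, the transmembrane collagen of hemidesmosomes, stood at 56.0, 7.72 and 18.2 TPM in the treated libraries and at 3.44, 1.47 and 7.80 TPM in the controls, with DST-MNs 2 just below control 3 (log2 change 2.51, SE 0.83, adjusted p = 0.212, edgeR, or 1.54 without DST-MNs 1). Of 16 receptors of laminin other than integrins and the genes that link or glycosylate them, 1 was higher and 1 lower at an unadjusted p below 0.05, at or under the shares of all genes. DESeq2 called 1 higher and 0 lower. The higher gene in both was Bcam, a receptor of Lama5, at 91.1, 89.2 and 70.7 TPM in the treated libraries and 54.8, 32.8 and 42.4 TPM in the controls (log2 change 0.79, SE 0.21, adjusted p = 0.156, edgeR, 0.0129 with DESeq2, 0.0129 to 0.403 over the alternatives). Of 32 genes of integrin activation and the adhesion plaque, 3 were higher and 6 lower at an unadjusted p below 0.05, DESeq2 called 2 higher and 4 lower, and the median was -0.13. The count of higher genes is close to the share of all genes. Bcar1 and Zyx, plaque proteins that respond to tension, and the leukocyte parvin Parvg had log2 changes of -0.61 (SE 0.13), -0.51 (SE 0.16) and -0.94 (SE 0.21), with adjusted p of 0.112, 0.193 and 0.119 (edgeR). Tns4, an epithelial tensin, had one of 4.12 (SE 1.16, adjusted p = 0.168, edgeR), or 2.83 without DST-MNs 1.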

How the data were processed

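Per the labels' protocols, messenger RNA of 6 diabetic rat wounds was sequenced in read pairs (DNBSEQ-T7); sample titles gave the groups. A single table from the authors holds 4 kinds of value. Its deposited estimated counts are unscaled, judging from their differing totals, and 90.5% to 91.4% were whole; all were rounded before testing. TPM values deposited by the authors add up to the same total in every library and were used for levels. FPKM values and normalised counts, a signal that the authors made by scaling each library's counts, were not tested. The build was mRatBN7.2, per the submitters' processing notes; aligner and counter: not given in the sources used here.

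Genes passing filterByExpr of edgeR 4.0.16 (minimum count 10) were TMM-scaled, then tested by glmQLFit and glmQLFTest in R 4.3.3, Benjamini-Hochberg adjusted over all 14427 genes. SE is the size of the log2 change divided by the square root of F. Alternatives were DESeq2 1.42.0 (Wald test, and its size factors in edgeR), total counts, no filter, limma-voom 3.58.1, limma trend on log2(TPM + 1) above a mean TPM minimum of 1, the replicate number as a block, and each library left out; DESeq2 without each library was added after seeing the data. The test code was checked on simulated counts. Members and lists were chosen with earlier results of these data known. The naming rule took the 12 smallest p-values, the highest chain of each family and 11 fixed chains, and up to 4 genes per list; marker lists are given mainly by their sums. Among 25 listed ligands 24 were matched by symbol, as were 4 of 5 basal keratinocyte markers. DESeq2 used independent filtering at 0.05. Replicates are labelled biological; nothing says that each is a separate animal, so p-values measure the spread between these samples. An exact two-sided permutation test of log2 summed TPM gave an unadjusted p of 0.2 for Itga6 with Itgb4. It gave 0.1, the smallest possible, for the leukocyte chains and for Lama4, Lama5, Lamb1 and Lamc1. Marker sums carry no p-value. The values of 1 chain are not reported here.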

Additional observations from a re-analysis of the deposited data

How the results depend on the processing

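With the size factors of DESeq2, total counts, no filter, limma-voom or limma trend on log2(TPM + 1), no member was called. DESeq2 called 9 and the replicate block 1, Lama3 (log2 change 1.82, adjusted p = 0.0389, edgeR). With 1 library left out edgeR called 0 to 3, the 3 being Itga5, Itgb6 and Lama4 without control 1. Members at an unadjusted p below 0.05 numbered 11 to 17 with 1 library left out, and 14 with all libraries, where 16.7% of all genes passed. The share of all genes was not counted for the former fits, so that range has no background. Members called by DESeq2 with 1 library left out numbered 5 to 11, against 3.44% to 12.9% of all genes. Over all genes DESeq2 called 1018, and 14 to 402 genes were called with 1 library left out, the most without control 1. Over the 5 pathway lists, with 20, 19, 7, 16 and 32 genes tested, the count was 1 with all libraries (0.776% of all genes). It was 0 with no filter and with limma-voom (0.658% for limma-voom), 21 with DESeq2 (7.06%) and 3 with the replicate block (0.853%). With 1 library left out it was 0 to 8, the 8 without control 1 (2.74%). No named member reversed its direction in any alternative run: 233 of 246 values kept direction and call and 13 passed the threshold anew. Same-numbered libraries had correlations of deviations of -0.025, 0.101 and 0.109, so the numbers were not taken as pairs. Total counts and log2(TPM + 1) moved the median log2 change of all genes to 0.12. In CPM in place of TPM, the share of Lama4 differed by -15.8 percentage points, against -15.0 in TPM. With 1 library left out the Lama3 share differed by 3.87 to 7.85 points and the Lama4 share by -19.7 to -11.7. Lama1 had too few counts to be tested.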
